A study of Mus musculus with 6 samples.

Results

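The 9 genes described here code for ligands and receptors of vascular endothelial growth factor (VEGF) signalling: the ligands Vegfa, Vegfb, Vegfc and Pgf, the receptor tyrosine kinases Flt1 (VEGFR1), Kdr (VEGFR2) and Flt4 (VEGFR3), and the co-receptors Nrp1 and Nrp2. They were chosen by name, with earlier results of these data known. Every deposited peak that overlapped a gene span or 5 kb on either side of it was taken. This gave 60 peaks of 130269 in 4 peak lists, at 9 of 21887 protein-coding genes. The peaks mark DNA recovered with the long noncoding RNA Tug1 from cultured mouse podocytes, with ChIRP-seq (chromatin isolation by RNA purification), in which biotinylated oligonucleotides complementary to an RNA pull it out of crosslinked nuclei with its chromatin. All libraries came from 1 kind of cell, a podocyte line immortalized with a temperature-sensitive SV40 T antigen, used at passages 10 to 12, grown at 33 degrees and switched to 37 degrees for 10 days to differentiate. Alternate probes of the 48 against Tug1 formed an even and an odd pool, and each pool served 2 pulldowns (even replicates 1 and 2, odd replicates 1 and 2). The 2 libraries of input DNA entered through the authors' peak calling alone. The labels do not say that replicates were grown separately, and their spread may be technical. No pulldown with probes against another RNA was analysed here. Peak lists hold no expression values, so the podocyte identity of the cells could not be checked against marker genes.

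In the glomerulus, podocytes are a main source of VEGF-A, which crosses the basement membrane against the direction of filtration and acts on Kdr of the fenestrated endothelium. Flt1 binds VEGF-A, VEGF-B and placental growth factor (the product of Pgf), and its soluble form is a VEGF trap. Flt4 is the receptor of VEGF-C in lymphatic endothelium, and the neuropilins Nrp1 and Nrp2 bind both VEGF and class 3 semaphorins.

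Depth cannot be read from peak lists, and a deeper library can yield more peaks. The lists held 40725 and 26529 peaks for the even replicates 1 and 2, then 28047 and 34968 for the odd ones. Median peak widths were 399, 404, 247 and 407 bp in this order. The odd replicate 1 list stood apart by its narrow peaks. The score of a peak is the authors' and has no stated scale. In the replicate 1 lists most peaks shared a score of 3100 (78.6% in the even and 99.9% in the odd list), which is the 58.8 percentile and the 50.04 percentile of those lists when ties take their middle rank. A score therefore ranks peaks mainly in the replicate 2 lists, where the medians were 265 and 221. All 4 lists had peaks inside the Tug1 gene itself, 3, 3, 5 and 3 of them. The probes could bind the DNA of that gene directly, which was not tested.

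Each of the 9 genes had at least 1 peak within 5 kb, as did 74.9% of all protein-coding genes, but the genes differed widely in how many libraries marked the same place. Even replicate 1 had 13 peaks at 6 of the genes, even replicate 2 had 15 at 5, odd replicate 1 had 17 at 7 and odd replicate 2 had 15 at 6. Over all protein-coding genes, 48.9%, 35.5%, 40.0% and 42.7% had a peak in these lists. Vegfc, Flt1 and Nrp1 had a peak of every library, against 13.5% of all protein-coding genes. These genes span 108.9 to 164.8 kb, against a median of 17.2 kb over all, and longer genes can hold more peaks. The share among genes of their length was not computed for this count. When overlapping peaks (by at least 1 bp) were merged into regions, the 60 peaks formed 45 regions, of which 36 were seen in 1 library, 5 in 2, 2 in 3 and 2 in all 4. Regions of at least 2 libraries were 9 of these 45 and 11.8% of the 57261 regions at protein-coding genes. The place of every peak along its gene is shown in the map by library.

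**Figure D1:**
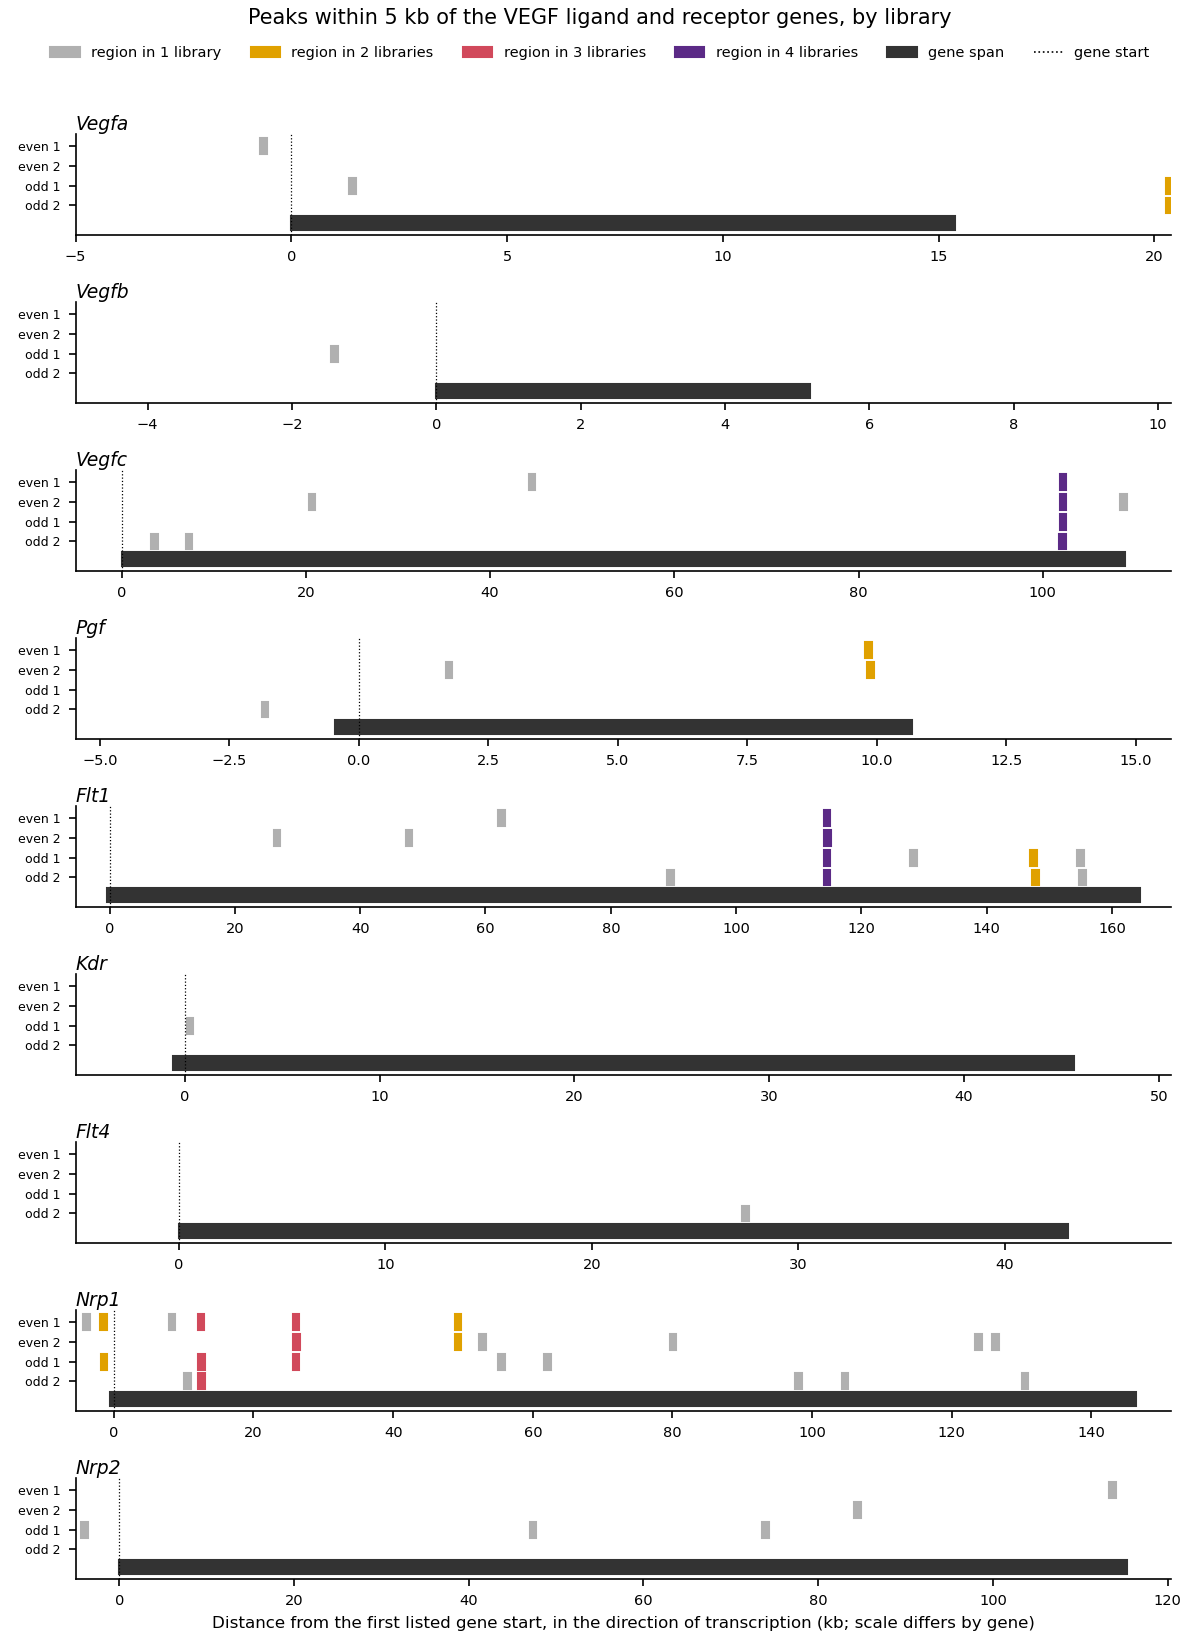
Position of each peak (x axis, kb from the first listed gene start in the direction of transcription, with a scale of its own for each gene) in each of the 4 libraries (rows). The dark bar is the gene span, marks are drawn wider than the peaks so that they can be seen, and colour gives the number of libraries in the merged region. Flt1 and Vegfc each hold 1 region of 4 libraries, far from the start, and the regions of 3 libraries both lie in Nrp1.

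Regions shared between the probe sets were found at the longer genes. A region holding at least 1 even and 1 odd library was found at 3 of the 9 genes (Flt1, Vegfc and Nrp1), against 16.0% of all protein-coding genes. A region of all 4 libraries was found at 2 of the 9 (Flt1 and Vegfc), against 1.60% of all protein-coding genes. Longer genes hold more regions. The 4 members of at least 100 kb were Flt1, Nrp1, Nrp2 and Vegfc, and among the 2429 protein-coding genes of that length, a limit set after the values were seen, 47.3% had a region of both probe sets and 5.56% a region of all 4 libraries. Nrp2, the other gene of that length, had no region of more than 1 library.

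Among the ligands, Vegfc, best known for driving lymphatic growth, carried the region with the highest ranks. It spans 108.9 kb of chromosome 8 (54077532 to 54186454, gene ID 22341, plus strand). The region at chr8:54179415-54179897 lay inside the gene, 101.9 kb downstream of the start and 6.56 kb before the far end. Its peaks ran from 54179554 to 54179893 in even replicate 1 (score 3100), from 54179566 to 54179897 in even replicate 2 (score 900), from 54179544 to 54179881 in odd replicate 1 (score 3100) and from 54179415 to 54179887 in odd replicate 2 (score 1097). The replicate 2 scores were at the 98.3 percentile of the even and the 99.2 percentile of the odd list, so both lists placed it near their top. The stretch common to all 4 peaks was 316 bp, and their ends lay within 16 bp of each other. The other 5 peaks at Vegfc were each seen in 1 library. One of them, in even replicate 1 at 54121949 to 54122248, had a score of 3233.06, the highest value of that list, which 29 peaks shared. The other 4 lay at or under the 45.6 percentile of the replicate 2 lists. Of these, the odd replicate 2 peak at 54080852 to 54081407 also overlapped the protein-coding gene Gm33153.

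Vegfa, the ligand that podocytes supply to the endothelium, had no region of both probe sets. The gene spans 15.4 kb of chromosome 17 (46016993 to 46032377, gene ID 22339, minus strand). Even replicate 1 had a peak at 46032773 to 46033281, beginning 396 bp upstream of the first listed start, with a score of 2231, at the 5.49 percentile of its list. Odd replicate 1 had a peak inside the gene at 46030823 to 46031090, 1287 bp downstream of that start, with the shared score of 3100. Both odd libraries had a peak downstream of the gene at chr17:46011861-46012194, with edges within 6 bp of each other and scores of 3100 and 296 (69.3 percentile of odd replicate 2). It lay 4.80 kb from the gene, just inside the 5 kb limit, and even replicate 2 had no peak at Vegfa.

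Pgf, which codes for placental growth factor, was marked by the even libraries at its far end. The gene spans 11.1 kb of chromosome 12 (85166637 to 85177785, gene ID 18654, minus strand). Even replicates 1 and 2 overlapped at chr12:85167159-85167712, 0.522 kb before the end of the gene, with scores of 2822 and 338 (15.3 and 67.1 percentiles). Even replicate 2 had a further peak at 85175399 to 85175748 and odd replicate 2 had one upstream of the gene with the low score of 70.8 (1.16 percentile). Just outside the 5 kb limit, 8.14 kb upstream of the gene, even replicate 1, odd replicate 1 and odd replicate 2 overlapped at chr12:85185922-85186372, with scores of 3100, 3100 and 269. A wider window would therefore give Pgf a region of both probe sets.

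Vegfb, whose product binds Flt1 but not Kdr, had 1 peak. Odd replicate 1 marked 6988936 to 6989183 on chromosome 19, 1285 bp upstream of the start, and this peak lay inside the neighbouring gene Dnajc4. The gene itself (6982472 to 6987651, gene ID 22340) held no peak of any library.

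Among the receptor kinases, Flt1 was the one with peaks of every library. It is the longest of the 9 genes, 164.8 kb on chromosome 5 (147561604 to 147726438, gene ID 14254, minus strand). The region at chr5:147611075-147611717 lay inside the gene, 114.3 kb downstream of the start and 49.5 kb before the far end. Its peaks ran from 147611335 to 147611709 in even replicate 1 (score 3100), from 147611075 to 147611717 in even replicate 2 (score 528), from 147611326 to 147611708 in odd replicate 1 (score 3100) and from 147611327 to 147611709 in odd replicate 2 (score 444). The replicate 2 scores were at the 89.7 percentile of the even and the 88.2 percentile of the odd list. The ends of the 4 peaks lay within 9 bp of each other. The starts lay within 9 bp in the other libraries and 260 bp apart with even replicate 2, which had the widest peak.

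The closeness of the edges varied among regions of this kind. Over the 693 regions of the whole series with 1 peak of each library, the median spread was 87 bp for starts and 76 bp for ends (quartiles 21.0 and 203 bp for ends). The spread of ends was as small as at Flt1 in 9.52% of them and as small as at Vegfc in 20.5%. The spread of starts was at or under that of Flt1 in 83.4% and at or under that of Vegfc, 151 bp, in 64.5%.

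**Figure D2:**
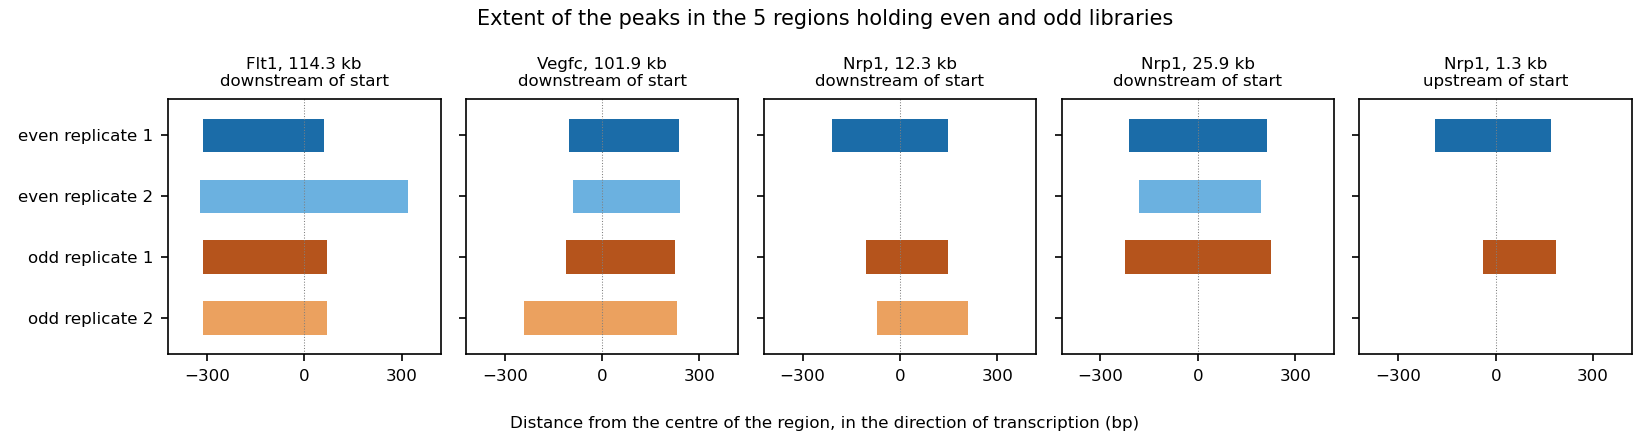
Extent of each peak (x axis, bp from the centre of the merged region, in the direction of transcription) in each library (rows) for the 5 regions that hold even and odd libraries. At Flt1, 3 of the 4 peaks share both edges within 9 bp, and at Vegfc the 4 ends lie within 16 bp. A row with no bar is a library with no peak in that region.

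Flt1 held 9 further peaks, all inside the gene. Odd replicates 1 and 2 overlapped by 18 bp at chr5:147577933-147578697, 147.3 kb downstream of the start, with scores of 3100 and 145 (19.2 percentile). The other 7 peaks were seen in 1 library each, and their scores in the replicate 2 lists ran from the 60.3 to the 92.9 percentile. The even replicate 1 peak among them, at 147663200 to 147663753, also lay inside the lncRNA gene Gm35383. No peak lay within 2 kb of the listed start. Of the 21887 protein-coding genes, none other had the peak counts of Flt1 (2 and 3 peaks in the even lists, 4 in each odd list), so no gene is named as most like it.

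Kdr and Flt4 had 1 peak each, against a median of 2 over all protein-coding genes, whose median length was 17.2 kb. Kdr, the main signalling receptor for VEGF-A, spans 46.2 kb of chromosome 5 (75932827 to 75979072, gene ID 16542, minus strand) and had 1 peak. Odd replicate 1 marked 75978084 to 75978284, 171 bp downstream of the listed start, with the shared score of 3100, and the lncRNA gene Gm32727 overlaps the same bases. Flt4 spans 43.1 kb of chromosome 11 (49609679 to 49652739, gene ID 14257, plus strand) and also had 1 peak, of odd replicate 2, at 49636969 to 49637264 with a score of 139 (17.1 percentile). No even library marked either gene, and 48.9% and 35.5% of all protein-coding genes had a peak of even replicates 1 and 2. The even libraries overlapped each other 14.2 kb upstream of Flt4, at chr11:49594950-49595430, outside the window and inside the gene Gm42075.

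Of the co-receptors, Nrp1 held the most peaks of the 9 genes and Nrp2 held no overlap at all. Nrp1 spans 146.9 kb of chromosome 8 (128358591 to 128505476, gene ID 18186, plus strand). Its window held 6, 6, 5 and 5 peaks (even replicates 1 and 2, odd replicates 1 and 2), 22 in all, in 16 regions. Of these regions 3 held both probe sets, as was the case at 1.01% of all protein-coding genes and at 6.92% of those of at least 100 kb. The first, at chr8:128357391-128357764, lay 1.31 kb upstream of the listed start and inside the lncRNA gene A930035F09Rik, and held peaks of even replicate 1 (score 2391, 8.004 percentile) and odd replicate 1 (score 3100). The second, at chr8:128371392-128371811, lay 12.3 kb downstream of the start and held even replicate 1 (score 3100), odd replicate 1 (score 3100) and odd replicate 2 (score 285, 66.8 percentile). The third, at chr8:128384967-128385418, lay 25.9 kb downstream and held even replicate 1 (score 3100), even replicate 2 (score 733, 96.7 percentile) and odd replicate 1 (score 3100). Odd replicate 2 was the library missing from the third and even replicate 2 the one missing from the second, so no place in Nrp1 was marked by all 4. Both even libraries also overlapped at chr8:128408246-128408533, 49.2 kb downstream, with scores of 3100 and 489 (87.0 percentile). The regions of at least 2 libraries all lay between 1.68 kb upstream and 49.5 kb downstream of the start. The rest of the gene held peaks of 1 library each, some of them inside the lncRNA gene Gm32643.

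Nrp2, 115.4 kb on chromosome 1 (62703317 to 62818692, gene ID 18187, plus strand), had 5 peaks in 5 regions of 1 library each. Odd replicate 1 had 3 of them, the even libraries 1 each and odd replicate 2 none. The even replicate 2 peak, at 62787523 to 62788083, had a score of 109 (3.49 percentile), and the even replicate 1 peak, at 62816685 to 62817269, a score of 2776 (14.7 percentile). Nrp2 is thus close to Nrp1 and Vegfc in length, with the fewest overlaps of the 4 long genes.

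Of the 60 peaks, 51 lay inside a gene, 7 upstream and 2 downstream. No peak overlapped the 300 bp around any listed start of the 9 genes (250 bases before to 50 after). Of the protein-coding genes with a listed start, 5.41% had one there, and 9 genes are too few to set apart from that share. Within 2 kb of a listed start, 5 of the 9 genes had a peak (Vegfa, Vegfb, Pgf, Kdr and Nrp1), against 24.5% of protein-coding genes. At Nrp1 the same bases were marked by both probe sets, against 2.62%. The 250 bases before 4 of these starts are printed here, the 3 starts with a peak nearest to them (Vegfa, Pgf and Kdr) and Nrp1, the gene whose start had both probe sets within 2 kb at the same bases. At Vegfa the peak begins 396 bp before the start, at the second listed start of Pgf (85175982) an even replicate 2 peak begins 234 bp after it, at Kdr an odd replicate 1 peak begins 171 bp after it, and at Nrp1 the region of both probe sets lies 1.31 kb before it. The sequences come from RefSeq (GRCm38.p6, the build also called mm10) and run 5′ to 3′ on the strand of the gene. They cover chr17:46032378-46032627 (minus strand), chr12:85175983-85176232 (minus), chr5:75978456-75978705 (minus) and chr8:128358823-128359072 (plus). Capitals mark the GC box GGGCGG, a site for Sp1-type factors, on either strand (CCGCCC on the other).
Vegfa: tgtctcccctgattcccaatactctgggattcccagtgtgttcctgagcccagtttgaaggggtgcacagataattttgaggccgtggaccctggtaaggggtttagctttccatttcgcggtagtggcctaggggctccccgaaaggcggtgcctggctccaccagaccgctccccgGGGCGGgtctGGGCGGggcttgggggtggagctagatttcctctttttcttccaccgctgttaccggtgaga
Pgf, second start: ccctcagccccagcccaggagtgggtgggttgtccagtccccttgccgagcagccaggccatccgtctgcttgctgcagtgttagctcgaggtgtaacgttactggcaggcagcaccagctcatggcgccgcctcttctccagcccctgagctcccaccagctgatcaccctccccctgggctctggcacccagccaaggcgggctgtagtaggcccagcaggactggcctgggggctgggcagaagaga
Kdr: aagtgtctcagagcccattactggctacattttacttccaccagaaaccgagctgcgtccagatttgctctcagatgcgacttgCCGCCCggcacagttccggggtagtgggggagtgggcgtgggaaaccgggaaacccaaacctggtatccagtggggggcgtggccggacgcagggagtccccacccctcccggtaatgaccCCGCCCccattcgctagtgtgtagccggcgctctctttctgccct
Nrp1: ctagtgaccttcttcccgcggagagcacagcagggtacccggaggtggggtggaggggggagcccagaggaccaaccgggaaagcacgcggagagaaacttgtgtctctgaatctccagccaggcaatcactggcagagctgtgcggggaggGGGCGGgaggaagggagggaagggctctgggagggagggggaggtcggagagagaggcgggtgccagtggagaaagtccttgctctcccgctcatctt
A GC box was found 2 times before Vegfa (first bases 72 and 62 before the start), 2 times before Kdr (166 and 45 before it), 1 time before Nrp1 (98 before it) and not before the second start of Pgf. The same bases hold one in 32.7% of the 32851 starts of the table. The letters ACGTG, a form of the hypoxia response core bound by hypoxia-inducible factors, were in none of the 4 on either strand, and are in 16.6% of all. Other forms of that core were not searched for, so their absence is not shown. These are matches of letters in a fixed window. The bases under the peaks themselves were not analysed here.

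In the replicate 2 lists, shared peaks at these genes had higher median scores than single ones, as they did at protein-coding genes in general. In even replicate 2, the 5 member peaks in regions of at least 2 libraries had a median percentile of 89.7 (lowest 67.1, highest 98.3), and the 10 seen in that library alone a median of 25.02 (3.25 to 92.9). Over all peaks at protein-coding genes the medians were 64.0 and 46.1. In odd replicate 2, the 5 shared peaks had a median of 69.3 (19.2 to 99.2) and the 10 single ones a median of 18.8 (1.16 to 86.5), against 69.7 and 46.0 over all protein-coding genes. The ranges overlapped in both lists. Within these 2 lists, Flt1 was the gene whose single peaks ranked highest, at up to the 92.9 percentile. In even replicate 1, where 6 of the 13 peaks had a score of 3100, the 7 shared peaks had a median percentile of 58.8 (8.004 to 58.8) and the 6 single ones a median of 17.1 (0.794 to 99.96). Over all protein-coding genes both medians of that list were 58.8, the percentile of the tied score. All 17 peaks of odd replicate 1 had a score of 3100, so that list gives no order.

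**Figure D3:**
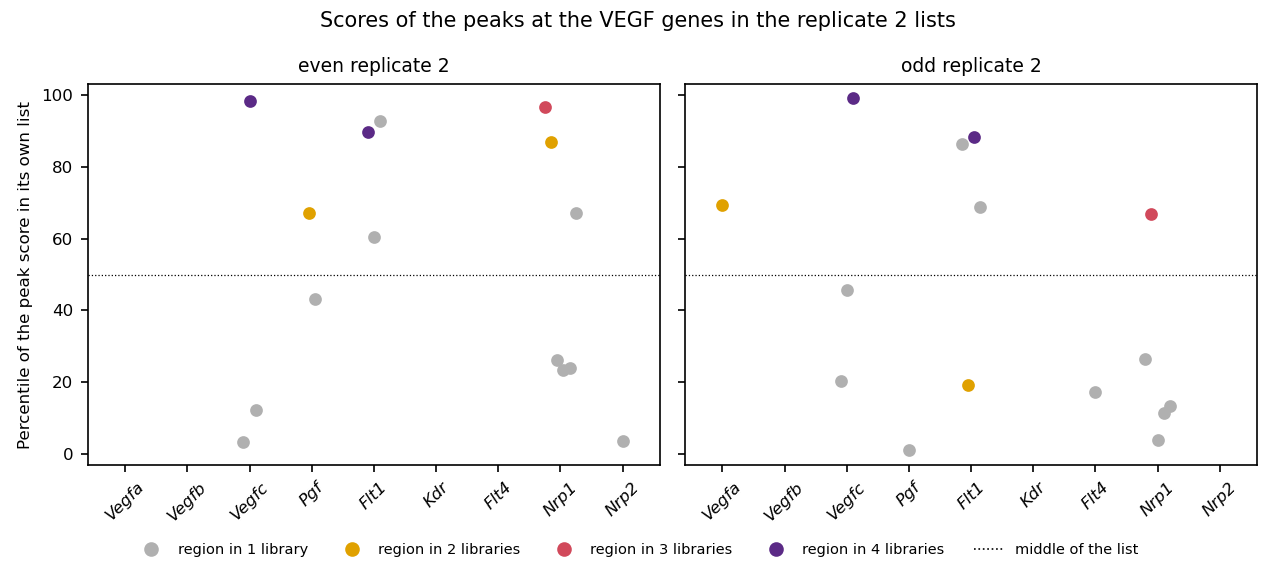
Percentile of each peak's score within its own list (y axis) at each gene (x axis) in even replicate 2 and odd replicate 2, coloured by the number of libraries in the merged region. The regions of 4 libraries, at Vegfc and Flt1, sit between the 88.2 and 99.2 percentiles, and most peaks of 1 library lie under the dotted middle of the list.

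The genes with most peaks per length of window, Pgf and Vegfa, held 1 region of at least 2 libraries each. Nrp1 held 4 and Flt1 held 2, in longer windows, and these counts of regions were not divided by length. Together the 9 windows covered 0.747 Mb and held 17.4, 20.1, 22.8 and 20.1 peaks per Mb in the lists, taken in the same order. The windows of all protein-coding genes held 18.7, 11.03, 12.8 and 14.7. Summed over the lists this was 80.3 peaks per Mb against 57.3, and 64.4 for the 8 genes without Nrp1. Pgf and Vegfa stood highest, at 189 and 158 peaks per Mb, each from 4 peaks in a short window. Nrp1 had 140, Flt1 74.4, Vegfc 75.7, Vegfb 65.9, Nrp2 39.9, Flt4 18.8 and Kdr 17.8. Chromosomes differ in their own density, which was 82.6 on chromosome 8 (Vegfc and Nrp1), 77.9 on chromosome 19 (Vegfb) and 49.4 on chromosome 5 (Flt1 and Kdr). Nrp1 was above its chromosome in every library, with 38.2, 38.2, 31.9 and 31.9 against 24.0, 18.3, 15.9 and 24.3. Vegfc was under the same chromosome in the replicate 1 lists (16.8 against 24.0 and 8.41 against 15.9) and above it in the replicate 2 lists (25.2 against 18.3 and 25.2 against 24.3). Flt1 was under its chromosome in even replicate 1 (11.4 against 15.7) and above it in the other libraries. The part of chromosome density in these counts was not tested.

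**Figure D4:**
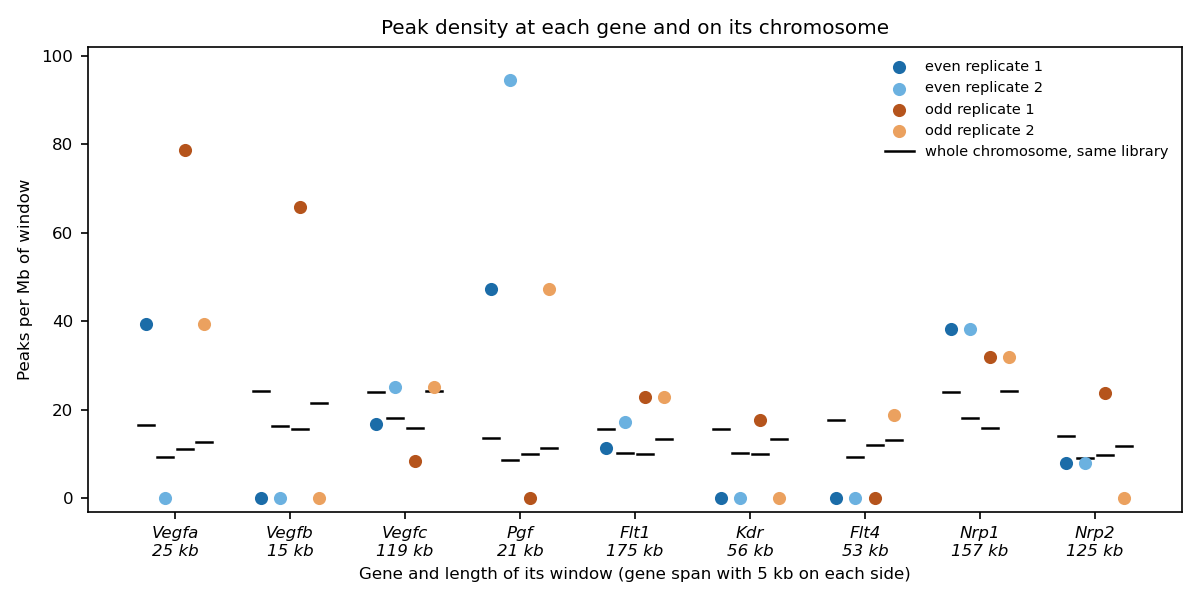
Peaks per Mb of window (y axis) at each gene (x axis, with the length of the window) in each library (points), with the density of the same list over the whole chromosome (short black lines). Nrp1 is the gene whose 4 points all lie above their lines, and Vegfb, Kdr and Flt4 have 3 points at 0.

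The shares of the even and odd lists at these genes differed by less than the replicates of a probe set did. Of all its peaks, even replicate 1 had 0.0319% in the 9 windows, even replicate 2 had 0.0565%, odd replicate 1 had 0.0606% and odd replicate 2 had 0.0429%. The means were 0.0442% ± 0.0174 (SD, n = 2) for even and 0.0518% ± 0.0125 (SD, n = 2) for odd probes, and the groups overlapped. The difference, even minus odd, was -0.00752 percentage points (two-sided exact permutation p = 0.667), and 2 libraries against 2 cannot give a p under 0.333. The direction turned when even replicate 1 (0.00479) or odd replicate 1 (0.00134) was left out. Same-numbered libraries were called against the same input, and within these pairs the difference was -0.0287 for replicates 1 and 0.0136 for replicates 2, in opposite directions.

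Other genes of VEGF signalling were taken from a list of 50, all matched in the gene table. Of these, 47 had a peak within 5 kb (94%, against 74.9% of all protein-coding genes). A region of at least 2 libraries was found at 20 (40.0% against 23.3%). A region of both probe sets was found at 15 (30.0% against 16.0%) and a region of all 4 libraries at 1 (2.00% against 1.60%). Their median length was 57.6 kb, against 46.2 kb for the 9 genes and 17.2 kb for all protein-coding genes, and longer genes hold more regions. The median number of peaks per 100 kb of window was 7.44 for the 9 genes, 6.19 for the 50 and 5.23 for all protein-coding genes.

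Prkcb, a protein kinase C isoform that acts downstream of Kdr, was the gene with a region of all 4 libraries, at chr7:122291305-122291683, with scores of 163 (15.4 percentile) in even replicate 2 and 420 (86.4 percentile) in odd replicate 2. A second region in Prkcb, at chr7:122306247-122306806, held even replicate 1 and both odd libraries, with a score of 863 (98.3 percentile) in odd replicate 2. Sema3a, a semaphorin that competes for Nrp1 and is itself made by podocytes, had a region of even replicate 1 and both odd libraries at chr5:13379353-13379588, with a score of 520 (92.6 percentile) in odd replicate 2. Angpt1, the ligand of the endothelial receptor Tek, had one of the same 3 libraries at chr15:42570679-42571102, with a score of 264 (62.0 percentile). By role, in groups too small to set apart from the 16.0% of all protein-coding genes, a region of both probe sets was found at 2 of the 5 oxygen-sensing genes that control the ligands (Hif1a and Epas1). It was also found at 5 of the 12 protein kinase C, Ras and MAP kinase genes, 2 of the 10 receptor-proximal adaptors and kinases, 2 of the 3 calcineurin and NFAT genes, 1 of the 6 neuropilin partners and semaphorins, 1 of the 4 PI3K, Akt and nitric oxide genes, 1 of the 4 angiopoietin and Tie genes and 1 of the 2 small GTPase genes. Vegfd, the ligand closest to VEGF-C, had 1 peak, of even replicate 1, and the membrane partners Cdh5, Itgav and Itgb3 had no region of 2 libraries.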

How the data were processed

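ChIRP-seq peak lists of 4 Tug1 pulldowns from mouse podocytes were used. The submitters' processing notes name Bowtie2 2.1.0 and the build mm10. Peaks were called separately for each pulldown, replicates 1 against input 1 and replicates 2 against input 2, per the file names. MACS appears in the peak names, and for its version and threshold nothing was given in the sources used here. The score in the deposited lists is the authors' value and has no stated scale, so it was used within a list, as a percentile with ties at their middle rank. A deposited list of the whole series was not used here.

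Positions are 1-based on mm10. Gene spans (21887 protein-coding genes on placed chromosomes) and starts came from RefSeq GRCm38.p6 tables without exons, so exon and intron could not be told apart. Starts were listed for all 9 members and for 17492 protein-coding genes. Regions join peaks that overlap by at least 1 bp. A gene counts as marked if a peak or region overlaps its span or 5 kb on either side. Counts are set beside the share of all protein-coding genes that meet the same rule, without a test. The members and lists were chosen with earlier results of these data known. All 9 members are described, and of 50 other pathway genes those with a region of at least 3 libraries are named by rule. Hif1a, Epas1, Vegfd, Cdh5, Itgav and Itgb3 were named after their values were seen. The depth of the libraries is unknown, so no counting interval was formed. Alternatives were windows of 0, 2 and 10 kb, peaks at or above the median score, a reciprocal overlap of 50%, peak centres, each library left out and, chosen after seeing the data, same-numbered libraries paired. The code was checked on simulated lists, in which a region planted in all 4 lists was found at 200 of 200 genes, and at 0 genes without planting. Planted peaks overlapped by design, and the other peaks were placed at random along each chromosome. The check therefore gives no rate at which such regions arise in the real lists. Software was Python 3.11.15 with pandas 2.3.3, numpy 2.4.6 and matplotlib 3.10.9.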

Additional observations from a re-analysis of the deposited data

How the results depend on the processing

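The 9 genes had 60 peaks within 5 kb, 51 inside the gene spans, 56 within 2 kb and 64 within 10 kb. Peaks at or above the median score of their list numbered 38. In the replicate 1 lists this median is the shared score of 3100, so that setting kept all 17 peaks of odd replicate 1. Counting by peak centre gave 60. Leaving out 1 library gave 43 to 47 peaks. Genes with a region of both probe sets numbered 3 in every setting run except the 10 kb window, where Pgf made them 4. Genes with a region of all 4 libraries numbered 2 in every setting with 4 libraries. With 1 library left out, regions of the other 3 were found at 2 or 3 genes, and without even replicate 2 or odd replicate 2 Nrp1 was the third. Regions of at least 2 libraries numbered 9, and 6 to 10 over all settings, with 8 under a reciprocal overlap of 50%. The difference in share between even and odd probes ranged from -0.0198 to 0.00479 percentage points when 1 library was left out, and it turned positive without even replicate 1 (0.00479) or odd replicate 1 (0.00134). With 1 library against 2, no permutation can give a small p. With same-numbered libraries paired as a replicate block, chosen after seeing the data, the mean difference was again -0.00752 (exact sign-flip permutation p = 1, where 2 pairs cannot go below 0.5). The counts of genes and regions come from no test, so a block cannot be applied to them. Depth is unknown, so a gene with no peak in a list cannot be told from one below detection there.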
